A study of Homo sapiens with 11 samples.

Results

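BT483 and T47D-TamR, human breast cancer lines grown under the same 4 conditions, were set side by side. The comparison used 8 of the 11 libraries of the series, namely all 4 libraries of BT483 and the 4 libraries of T47D-TamR from cultures transfected with small interfering RNA (siRNA), matched by the siRNA and drug that their titles give. BT483 cells received control siRNA, NLK siRNA type 1, NLK siRNA type 2, or control siRNA with 0.5 µM tamoxifen, and T47D-TamR cells received the same 4. All cultures had first spent 48 h without estrogen, in phenol red-free medium with stripped serum, and were then treated for 72 h, with siRNA at 10 nM. The 3 libraries of T47D-TamR without siRNA (DMSO, VX-702, and DMSO with tamoxifen) had no BT483 partner. They are used to describe levels and, in an alternative fit, as further T47D-TamR libraries. In that fit DMSO was set with control siRNA, and DMSO with tamoxifen was set with control siRNA and tamoxifen. No genetic modification is labelled in either line.

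BT483 is an estrogen receptor positive line from a ductal breast carcinoma. T47D-TamR descends from T47D, another estrogen receptor positive ductal line, and was passaged in tamoxifen until it was resistant. Before the experiment BT483 was kept in serum-containing medium, whereas T47D-TamR was kept in stripped serum with tamoxifen. Parental T47D was not analysed here, so the origin of the line, its resistance and its growth history cannot be told apart in any difference below. The labels do not say whether T47D-TamR is a single clone. Each line had 1 library per condition, made from a single dish per the labels' protocols, and no condition was repeated within a line. The 4 conditions therefore stand in for replicates of a line. The line fit takes out what a condition does to both lines alike. Its p-values measure how unequal the line difference was over these conditions, mixed with spread between single libraries, which may be partly technical.

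In luminal breast cancer cells the estrogen receptor (ESR1) binds DNA together with the pioneer factors FOXA1 and GATA3 and switches on genes of secretion, growth factor signalling and cell cycle entry. Tamoxifen occupies the receptor and keeps it from activating most of these genes in breast cells. Lines that have escaped tamoxifen are known to differ in how much receptor they keep, which growth factor pathways they use and how fast they divide. NLK, the kinase lowered by siRNA in this study, is a relative of the MAP kinases that acts on transcription factors of the Wnt and Notch pathways.

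Depth ran from 14637083 to 25728513 counts in the BT483 libraries and from 23716207 to 26849956 counts in the T47D-TamR libraries. Levels are given as CPM, the count of a gene scaled to a common library size after TMM normalization, always in the order control siRNA, NLK siRNA type 1, NLK siRNA type 2, and control siRNA with tamoxifen. Where an average is printed it is the mean ± SD of the 4 libraries of a line, so that the SD holds the effect of the conditions too. A count of 0 allows up to 3 counts, which is between 0.112 and 0.205 CPM per library; such limits and the intervals below cover counting error only. NLK had 30.2, 8.63, 5.49 and 34.9 CPM in BT483, against 30.8, 10.3, 12.1 and 29.6 CPM in T47D-TamR, so the targeted mRNA was lower in both NLK siRNA libraries of each line. The line effect on NLK itself did not pass the test (log2 fold change -0.27, SE 0.21, adjusted p = 0.254), but it did without either tamoxifen library, with a log2 fold change of -0.43 without that of BT483 (adjusted p = 0.0415) and of -0.44 without that of T47D-TamR (adjusted p = 0.0366).

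The identity of the line was the dominant difference. The first principal component separated BT483 from T47D-TamR and held 88.3% of the variance of log2 CPM, against 2.79% and 2.41% for the next 2. On the second component the BT483 tamoxifen library stood apart at -60.5, with the other 7 libraries between -11.7 and 27.2. On the third component the NLK siRNA type 2 libraries of both lines lay at the negative end, at -43.6 in BT483 and -33.3 in T47D-TamR. In the median gene the line accounted for 77.5% of the sum of squares and the condition for 9.82%. At a matched condition, between 47.9% and 51.3% of genes differed at least 2-fold between BT483 and T47D-TamR. Within a line, between 6.22% and 10.6% of genes differed at least 2-fold between a treated culture and control siRNA.

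**Figure D1:**
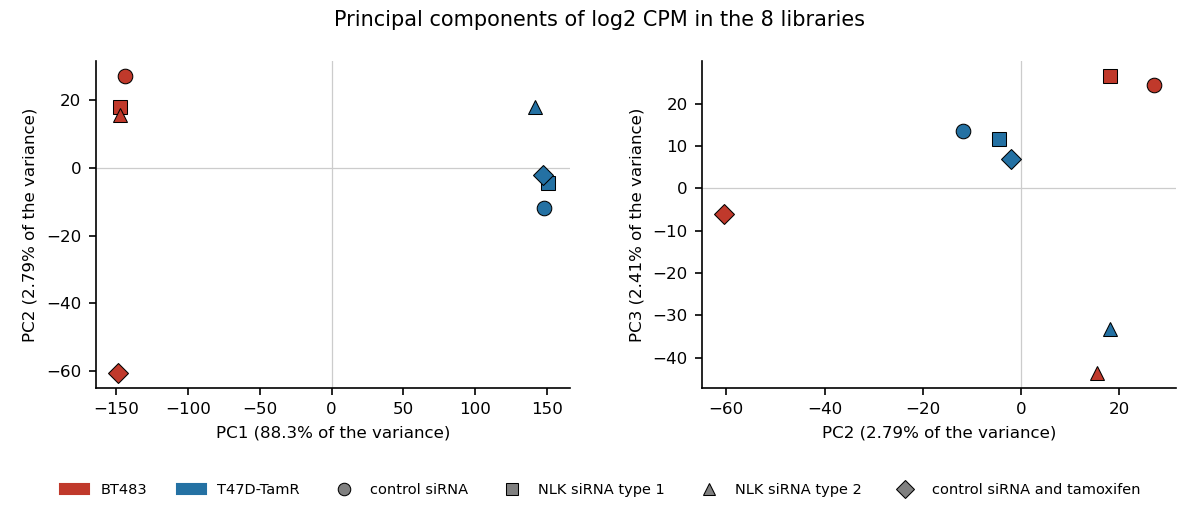
Principal components of log2 CPM of the 8 libraries: component 1 against 2 on the left, component 2 against 3 on the right, each axis with its share of the variance. Colours mark the line and symbols the condition; the lines separate on component 1, which holds 88.3% of the variance, and the BT483 tamoxifen library lies at -60.5 on component 2.

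The line effect was fitted with edgeR's quasi-likelihood test with the condition as a block, and adjusted p-values (Benjamini-Hochberg) are over all 21990 genes tested. At an adjusted p under 0.05, 7833 genes (35.6%) were higher and 7710 genes (35.1%) lower in BT483, 70.7% in all. With a further limit of a 2-fold change, 5535 genes (25.2%) were higher and 4958 (22.5%) lower. For 64.9% of the genes the 4 values of BT483 did not overlap those of T47D-TamR. With so many genes called, the count for a gene list is read against these shares: about 35 in 100 members called in each direction is what the whole table shows. The median log2 fold change over all genes was 0.01.

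**Figure D2:**
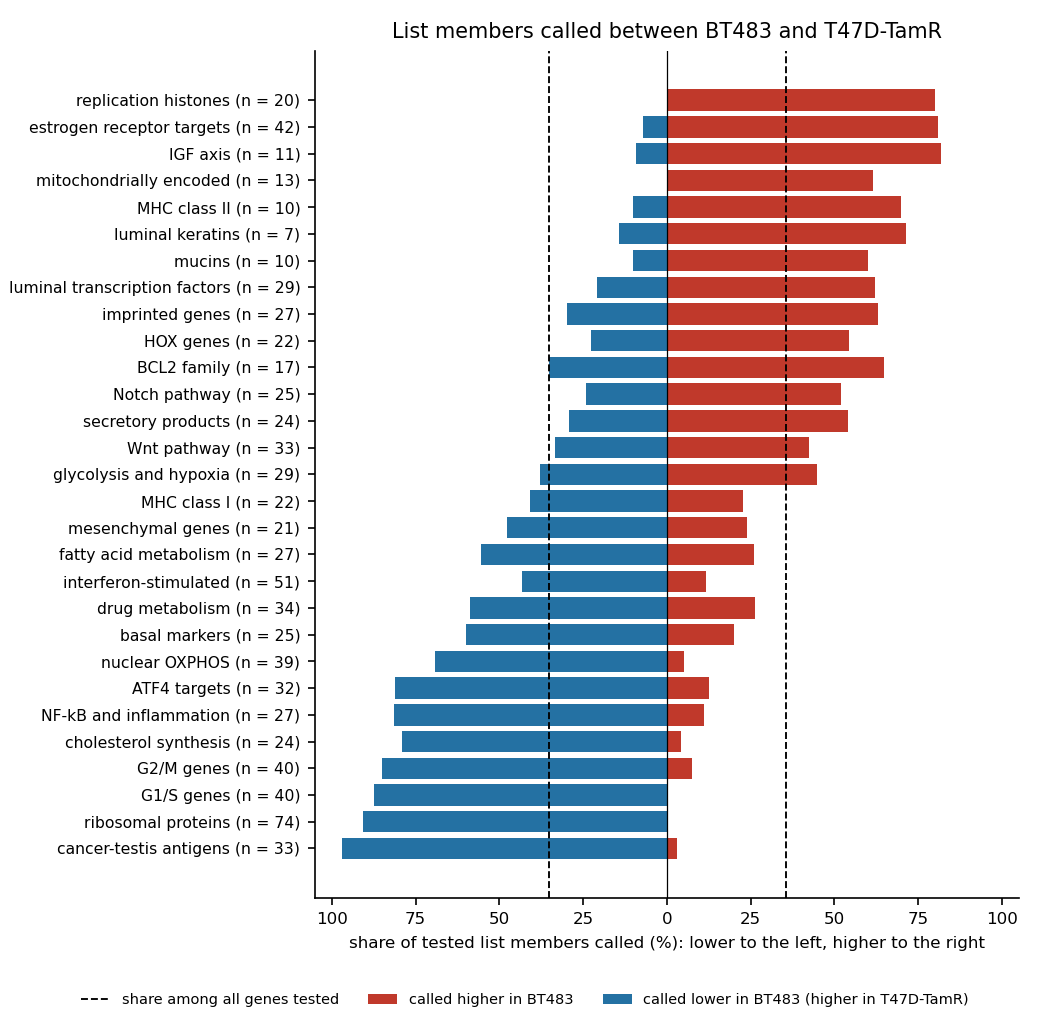
Share of the tested members of each gene list that passed the edgeR test as higher in BT483 (to the right) or lower in BT483 (to the left), in percent; n is the number of members tested and the dashed lines mark the shares among all 21990 genes, 35.6% and 35.1%. Replication histones, estrogen receptor targets and the IGF axis lie farthest to the higher side, and cancer-testis antigens, ribosomal proteins and the G1/S genes farthest to the lower side.

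The most abundant protein-coding transcripts outside the mitochondrial genome, ranked in TPM, a level that takes transcript length into account, differed in rank between the lines. KRT19, a luminal keratin and the highest in BT483, averaged 6327 ± 534 TPM in BT483 and 992 ± 167 TPM in T47D-TamR. ACTB, cytoplasmic actin and the highest in T47D-TamR, averaged 2814 ± 427 TPM in BT483 and 4552 ± 675 TPM in T47D-TamR. HSPB1, a small heat shock protein, averaged 4523 ± 282 TPM in BT483 and 1822 ± 213 TPM in T47D-TamR, and TMSB10, a thymosin that binds actin monomers, averaged 4095 ± 607 TPM in BT483 and 2409.7 ± 340.4 TPM in T47D-TamR. These 4 genes passed the test (adjusted p from 3.79e-09 for KRT19 to 0.00928 for TMSB10), although the CPM of TMSB10 overlapped between the lines. S100A11, a calcium-binding protein, was among the 10 highest in both lines, at 2842 ± 268 TPM in BT483 and 2876 ± 189 TPM in T47D-TamR, and its line effect missed the threshold (log2 fold change -0.19, adjusted p = 0.212). HSP90AB1, a chaperone of steroid receptors, was also in both lists, at 2194 ± 163 TPM in BT483 and 2565 ± 125 TPM in T47D-TamR (log2 fold change -0.40, adjusted p = 0.00452), and its call was lost without the NLK siRNA type 1 library of BT483 (adjusted p = 0.075) or of T47D-TamR (adjusted p = 0.0643). CRABP2, which carries retinoic acid to its receptor, IGFBP5, KRT8 and TFF1 completed the BT483 list. RPL8, RPS21, CALR, a chaperone of the endoplasmic reticulum, EEF2, a translation elongation factor, and ATP5F1B, the catalytic subunit of ATP synthase, completed that of T47D-TamR. CRABP2 averaged 2371 ± 262 TPM in BT483 and 438 ± 47.4 TPM in T47D-TamR, and CALR averaged 556 ± 89.9 TPM in BT483 and 2362 ± 255 TPM in T47D-TamR.

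BT483 carried more estrogen receptor mRNA and, among the receptor's targets, many that T47D-TamR hardly expressed. ESR1 had 154, 122, 146 and 122 CPM in BT483, against 26.0, 20.7, 32.3 and 25 CPM in T47D-TamR. Every BT483 library lay above every T47D-TamR library (log2 fold change 2.40, SE 0.12, adjusted p = 1.37e-08). PGR had 12.1, 12.2, 29.7 and 1.06 CPM in BT483, against 0.710, 0.522, 0.864 and 0.0389 CPM in T47D-TamR; PGR encodes the progesterone receptor, a classical target, and the tamoxifen library was the lowest of its line in both (log2 fold change 4.6, adjusted p = 3.42e-08). In the list of estrogen receptor targets 34 of 42 tested members passed as higher and 3 as lower in BT483, and the median log2 fold change was 2.38. In bulk RNA, fewer cells that express a gene and less RNA of it per cell cannot be told apart.

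The targets with the largest difference were close to absent from T47D-TamR. TFF1 had 684, 475, 722 and 65.3 CPM in BT483, against 0.167, 0, 0.0432 and 0 CPM in T47D-TamR. TFF1 is a secreted trefoil peptide, and its ratio over the 4 libraries was 9165-fold (95% counting interval 3927 to 28228). GREB1 had 781, 569, 618 and 79.8 CPM in BT483, against 0.292, 0.121, 0.0432 and 0.117 CPM in T47D-TamR. GREB1 is a cofactor of the receptor, and its ratio was 3332-fold (95% counting interval 1985 to 6094). NPY1R had 1347, 929, 878 and 532 CPM in BT483, against 0.334, 0.161, 0.0864 and 0 CPM in T47D-TamR. NPY1R, a receptor for neuropeptide Y, had a ratio of 6116-fold (95% counting interval 3645 to 11188). SLC7A2, a transporter of cationic amino acids, averaged 258 ± 12.9 CPM in BT483 and 0.136 ± 0.120 CPM in T47D-TamR (SD, n = 4 each). In the BT483 tamoxifen library TFF1 and GREB1 were the lowest of the 4, yet still above every T47D-TamR library.

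Not all targets followed. The 3 targets that passed as lower in BT483 were IL17RB, PKIB and AGR2, named after their values were seen. IL17RB, a cytokine receptor subunit, averaged 10.0 ± 4.69 CPM in BT483 and 26.9 ± 2.63 CPM in T47D-TamR (log2 fold change -1.55, adjusted p = 0.00153). AGR2, a disulfide isomerase of secretory cells, overlapped between the lines, at 187 CPM in BT483 against 236 CPM in T47D-TamR on average (log2 fold change -0.39, adjusted p = 0.0162).

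**Figure D3:**
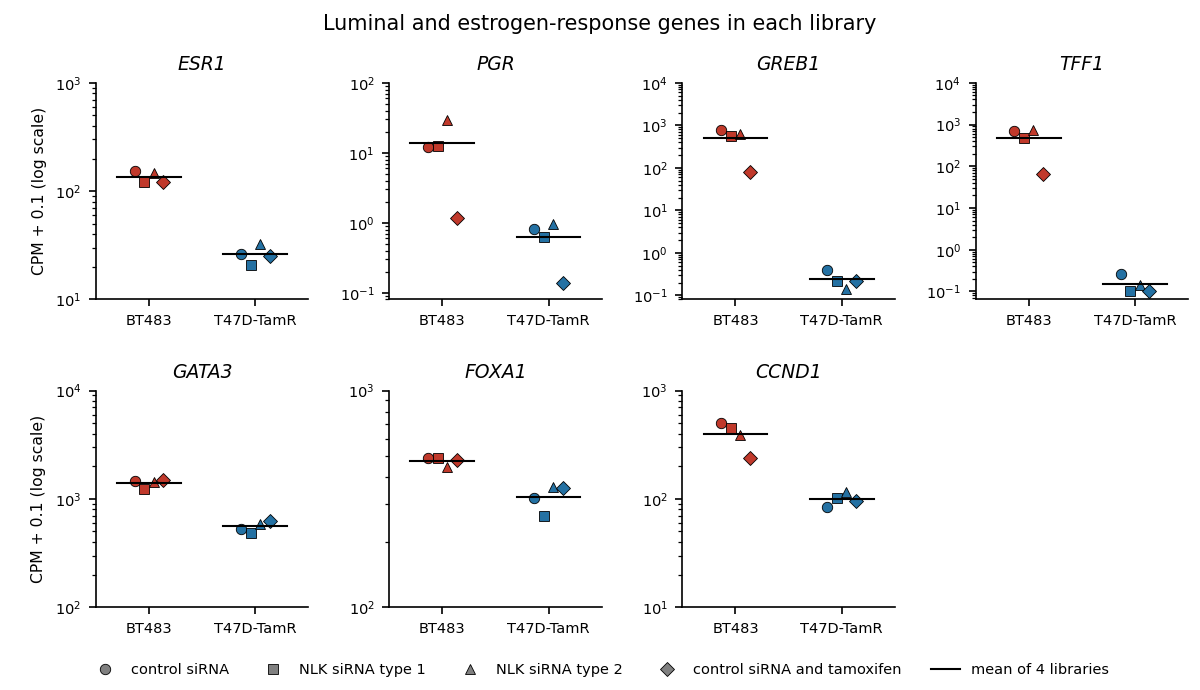
Level of 7 luminal and estrogen-response genes in each library, as CPM + 0.1 on a log scale, with BT483 at the left and T47D-TamR at the right of each panel; symbols mark the condition and the bar the mean of 4 libraries. ESR1, PGR, GREB1, TFF1, GATA3, FOXA1 and CCND1 are higher in every BT483 library than in every T47D-TamR library.

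The factors that accompany the estrogen receptor were expressed in both lines. GATA3 had 1447, 1222, 1437 and 1481 CPM in BT483, against 531, 484, 591 and 631 CPM in T47D-TamR (log2 fold change 1.32, SE 0.10, adjusted p = 4.32e-07). FOXA1 had 488, 489, 443 and 476 CPM in BT483, against 318, 262, 359.8 and 353 CPM in T47D-TamR (log2 fold change 0.56, SE 0.12, adjusted p = 0.00129). For both genes all 4 BT483 values were above all 4 of T47D-TamR. In the list of luminal transcription factors 18 of 29 tested members passed as higher and 6 as lower in BT483. ZNF217, a zinc finger protein amplified in some breast cancers, averaged 759 ± 56.4 CPM in BT483 and 86.2 ± 12 CPM in T47D-TamR (log2 fold change 3.15), and TBX3, a T-box repressor of mammary development, averaged 40.3 ± 6.25 CPM in BT483 and 3.62 ± 0.448 CPM in T47D-TamR (log2 fold change 3.47). TFAP2B, an AP-2 factor of luminal cells, went the other way: it had 0 counts in all 4 BT483 libraries and 247, 214, 358 and 265 CPM in T47D-TamR, at least 1832-fold lower in BT483. EN1, a homeobox factor, had 0.626, 1.11, 1.22 and 0.794 CPM in BT483 and 0 counts in T47D-TamR.

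Among nuclear receptors 16 of 30 tested members passed as higher and 12 as lower in BT483, so that 93.3% were called in either direction. RORA, a retinoid-related orphan receptor, averaged 9.82 ± 1.57 CPM in BT483 and 0.901 ± 0.126 CPM in T47D-TamR (log2 fold change 3.43). ESRRG, an orphan receptor related to ESR1, had 2.79, 3.01, 4.93 and 2.65 CPM in BT483 and 0 counts in T47D-TamR.

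Most of the luminal keratins and mucins tested were higher in BT483. KRT19 had 4703, 4613, 4792 and 5799 CPM in BT483, against 841, 768, 841 and 1036 CPM in T47D-TamR (log2 fold change 2.52, SE 0.11, adjusted p = 3.79e-09). KRT7 had 1128, 1346, 1335 and 1619 CPM in BT483, against 126, 146, 161 and 137 CPM in T47D-TamR (log2 fold change 3.24, SE 0.12, adjusted p = 1.78e-09). KRT7 and KRT19 are keratins of simple and luminal epithelium, and neither overlapped between the lines. Of luminal keratins, 5 of 7 tested members passed as higher and 1 as lower in BT483, the lower one being KRT80. Among mucins, the large glycoproteins of secretory surfaces, 6 of 10 tested members passed as higher and 1 as lower in BT483. MUC5B had 912, 974, 579.6 and 409 CPM in BT483, against 0.167, 0.0402, 0.302 and 0.233 CPM in T47D-TamR, a ratio of 3609-fold (95% counting interval 2283 to 6089.5) for this gel-forming mucin. MUC16, the CA125 antigen, averaged 26.6 ± 5.68 CPM in BT483 and 0.195 ± 0.126 CPM in T47D-TamR (log2 fold change 7.04). MUC15, a membrane mucin, was the mucin that passed as lower, at 0.180 ± 0.128 CPM in BT483 and 8.78 ± 2.54 CPM in T47D-TamR. Of the secretory products 13 of 24 tested members passed as higher and 7 as lower in BT483. TFF3 averaged 295 ± 158 CPM in BT483 and 1.61 ± 0.145 CPM in T47D-TamR, whereas TFF2 averaged 0.00927 ± 0.0185 CPM in BT483 and 5.41 ± 2.14 CPM in T47D-TamR, so that members of the trefoil family differed in opposite directions. AGR3, a relative of AGR2, averaged 6.60 ± 1.62 CPM in BT483 and 0.0409 ± 0.0569 CPM in T47D-TamR.

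Both lines carried the markers of luminal epithelium, with all 8 of 8 defining markers at a mean of at least 1 TPM in each. Their summed level was 11733 to 12979 TPM in BT483 and 3542 to 4616 TPM in T47D-TamR. Markers of basal or myoepithelial cells summed to 7.17 to 30.2 TPM in BT483 and to 44.6 to 68.3 TPM in T47D-TamR. Each sum rested mostly on 1 gene: OXTR in BT483, at 5.23 to 28.8 TPM, and ACTA2 in T47D-TamR, at 38.4 to 57.1 TPM. Of 5 tested markers of this kind, 1 passed as higher and 4 as lower in BT483. Markers of fibroblasts and mesenchyme summed to 4.11 to 5.17 TPM in BT483 and 16.1 to 24.8 TPM in T47D-TamR. Leukocyte and endothelial markers each stayed under 3 TPM in sum in every library; CD3E in BT483 and KDR in T47D-TamR had 0 counts. No library therefore went against the labelled cell type by its markers.

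Genes of the basal and myoepithelial layer were mostly lower in BT483: in that list 5 of 25 tested members passed as higher and 15 as lower in BT483, with a median log2 fold change of -1.24. TP63 had 0.0569, 0.131, 0.0371 and 0.340 CPM in BT483, against 7.06, 5.14, 9.81 and 7.69 CPM in T47D-TamR; TP63 is the master transcription factor of basal epithelium (log2 fold change -5.66, adjusted p = 3.71e-07). ACTA2 had 0.456, 1.5, 1.11 and 0.491 CPM in BT483, against 44.9, 60.1, 59.4 and 48.3 CPM in T47D-TamR. ACTA2, smooth muscle actin of contractile cells, did not overlap between the lines (log2 fold change -5.97, adjusted p = 2.17e-09). CNN1, calponin of smooth muscle and myoepithelium, averaged 0.0185 ± 0.0371 CPM in BT483 and 2.88 ± 1.57 CPM in T47D-TamR. KRT15, a keratin of basal progenitors, was the opposite case, with 169.8 ± 23.8 CPM in BT483 and 3.37 ± 0.718 CPM in T47D-TamR (log2 fold change 5.66). Of mesenchymal genes 5 of 21 tested members passed as higher and 10 as lower in BT483, with a median of -1.48; several of these are at few counts in both lines. The direction of the median was not the same in every condition: over the matched conditions it was -1.02, -1.37, -1.74 and 0.34, the last being tamoxifen. In the T47D-TamR tamoxifen library COL1A2, VIM and SPARC stood at 0.0568, 0.102 and 0.0455 TPM, below each of the other 3 T47D-TamR libraries. They are a collagen chain, the mesenchymal intermediate filament and a matrix glycoprotein. Of the fibroblast and mesenchymal markers summed above, only COL1A1 was not lowest in the tamoxifen library of T47D-TamR. COL1A1, another collagen chain and the most abundant of these markers in T47D-TamR, stood at 17.4 TPM there, above the control siRNA library. CDH2, N-cadherin, averaged 1.84 ± 0.667 CPM in BT483 and 0.0931 ± 0.0691 CPM in T47D-TamR and TWIST2, a repressor of epithelial genes, averaged 0.543 ± 0.216 CPM in BT483 and 0.0209 ± 0.0241 CPM in T47D-TamR, both higher in BT483. POSTN, a secreted matrix protein, had 0.0569, 0.131, 0.0742 and 0.113 CPM in BT483, all within the limit of a count of 0, and 2.01, 5.22, 3.67 and 0 CPM in T47D-TamR, where the tamoxifen library was at 0 and the groups overlapped.

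Of adhesion and junction genes 21 of 31 tested members passed as higher and 7 as lower in BT483. CLDN1 had 10.9, 13.0, 16.5 and 9.64 CPM in BT483, against 390.5, 361, 508 and 378 CPM in T47D-TamR. CLDN1, a tight junction protein, was lower in each BT483 library (log2 fold change -5.05, adjusted p = 1.64e-10). PKP1 and PKP2, plaque proteins of desmosomes, were higher in BT483: PKP1 averaged 39.9 ± 9.83 CPM in BT483 and 0.738 ± 0.581 CPM in T47D-TamR and PKP2 averaged 24.5 ± 6.99 CPM in BT483 and 1.88 ± 0.253 CPM in T47D-TamR. CADM1, an immunoglobulin-like adhesion molecule, averaged 50.2 ± 9.18 CPM in BT483 and 5.73 ± 0.660 CPM in T47D-TamR (log2 fold change 3.12).

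Among receptors, the IGF axis stood higher in BT483. Insulin-like growth factors signal through IGF1R and the docking proteins IRS1 and IRS2, and binding proteins hold the ligands. In this list 9 of 11 tested members passed as higher and 1 as lower in BT483, with a median log2 fold change of 2.27. IGFBP5 had 4777, 6708, 4116 and 4724 CPM in BT483, against 207, 126, 155 and 231 CPM in T47D-TamR (log2 fold change 4.83, SE 0.25, adjusted p = 7.73e-07). IRS1 had 119.8, 102, 133 and 67.3 CPM in BT483, against 5.18, 7.76, 10.5 and 5.83 CPM in T47D-TamR (log2 fold change 3.85, SE 0.17, adjusted p = 7.53e-09). IRS2 averaged 13.1 ± 2.72 CPM in BT483 and 0.146 ± 0.145 CPM in T47D-TamR and IGFBP4 averaged 283 ± 142 CPM in BT483 and 4.25 ± 0.845 CPM in T47D-TamR (log2 fold changes 6.48 and 5.88). None of these 4 genes overlapped between the lines. IGF2R, which removes IGF2 from the surface, was the 1 member that passed as lower in BT483, at 173 ± 12.9 CPM in BT483 and 599.8 ± 80.1 CPM in T47D-TamR.

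In the ERBB family 7 of 16 tested members passed as higher and 8 as lower in BT483, and the median changed sign under 3 of 18 alternatives. ERBB2 had 873, 1017, 926 and 1163 CPM in BT483, against 489, 465, 587 and 622 CPM in T47D-TamR (log2 fold change 0.88, SE 0.11, adjusted p = 2.41e-05). ERBB4, a receptor for neuregulins, averaged 7.65 ± 0.995 CPM in BT483 and 0.506 ± 0.237 CPM in T47D-TamR (log2 fold change 3.94). EPGN had 0.0569, 0.131, 0.853 and 0.416 CPM in BT483, against 36.9, 35.7, 29.5 and 18.8 CPM in T47D-TamR; EPGN, epigen, is a ligand of the EGF receptor (log2 fold change -6.17, adjusted p = 5.59e-05). Of the neuregulins, NRG3 averaged 2.05 ± 0.614 CPM in BT483 and 0.0291 ± 0.0583 CPM in T47D-TamR and NRG4 averaged 0.246 ± 0.238 CPM in BT483 and 2.07 ± 0.225 CPM in T47D-TamR. Among other receptor tyrosine kinases 12 of 26 tested members passed as higher and 12 as lower in BT483, so that 92.3% were called in either direction, against 70.7% of all genes tested. FGFR1, a fibroblast growth factor receptor, averaged 133 ± 22.8 CPM in BT483 and 4.97 ± 1.77 CPM in T47D-TamR (log2 fold change 4.77), EPHA2, an ephrin receptor, averaged 2.49 ± 1.14 CPM in BT483 and 58.5 ± 22.8 CPM in T47D-TamR (log2 fold change -4.58), and EPHB6, a kinase-dead ephrin receptor, averaged 0.278 ± 0.211 CPM in BT483 and 64.3 ± 9.67 CPM in T47D-TamR (log2 fold change -7.85). NTRK2, a neurotrophin receptor, had 2.05, 0.850, 3.12 and 0.680 CPM in BT483 and 0 counts in T47D-TamR.

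Downstream of these receptors, 12 of 30 tested members passed as higher and 8 as lower in BT483 in the PI3K and AKT list. That was 66.7% in either direction, near the 70.7% of all genes tested. INPP4B, a lipid phosphatase that limits AKT, averaged 93.2 ± 21.2 CPM in BT483 and 9.35 ± 2.53 CPM in T47D-TamR (log2 fold change 3.33), and FOXO1, a transcription factor held back by AKT, averaged 8.03 ± 1.78 CPM in BT483 and 0.885 ± 0.536 CPM in T47D-TamR (log2 fold change 3.24). SGK1 and SGK2, kinases related to AKT, averaged 1.59 ± 0.536 CPM in BT483 and 0.239 ± 0.184 CPM in T47D-TamR for SGK1 and 4.41 ± 0.872 CPM in BT483 and 0.391 ± 0.285 CPM in T47D-TamR for SGK2. Of the ERK feedback genes 13 of 23 tested members passed as higher and 7 as lower in BT483. EGR1, an immediate early factor, averaged 48.3 ± 12.7 CPM in BT483 and 4.02 ± 2.42 CPM in T47D-TamR (log2 fold change 3.68), SPRY4, an inhibitor of receptor signalling, averaged 37.5 ± 9.95 CPM in BT483 and 3.79 ± 2.91 CPM in T47D-TamR (log2 fold change 3.48), and ETV1, an ETS factor, averaged 0.110 ± 0.0617 CPM in BT483 and 0.871 ± 0.112 CPM in T47D-TamR.

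In the NLK and p38 list 11 of 25 tested members passed as higher and 10 as lower in BT483, with a median that changed sign under 3 of 18 alternatives. MAPK14 had 83.4, 84.7, 80.8 and 90.3 CPM in BT483, against 173, 205, 165 and 191 CPM in T47D-TamR; MAPK14, p38α and the target of VX-702, was lower in each BT483 library (log2 fold change -1.11, SE 0.10, adjusted p = 2.02e-06). Its relative MAPK11, p38β, went the other way: MAPK11 had 114, 123, 126 and 144 CPM in BT483, against 24.2, 24.5, 33.0 and 23.2 CPM in T47D-TamR (log2 fold change 2.28). MAP2K6, the kinase upstream of p38, averaged 20.9 ± 2.18 CPM in BT483 and 1.57 ± 0.484 CPM in T47D-TamR (log2 fold change 3.75). LEF1, a Wnt transcription factor, was low in both lines, at 0.353 ± 0.266 CPM in BT483 and 0.0537 ± 0.0819 CPM in T47D-TamR, and its call (adjusted p = 0.0152) was lost without the NLK siRNA type 1 library of BT483 (adjusted p = 0.110) or of T47D-TamR (adjusted p = 0.0939). In the Wnt list 14 of 33 tested members passed as higher and 11 as lower in BT483. WNT5A had 0.285, 0.327, 0.742 and 0.189 CPM in BT483, against 298, 269.6, 289 and 294 CPM in T47D-TamR; WNT5A is a ligand of the non-canonical branch (log2 fold change -9.50, adjusted p = 1.20e-09). WNT5B, its close relative, averaged 2.45 ± 1.43 CPM in BT483 and 0.0720 ± 0.0617 CPM in T47D-TamR, WNT3 averaged 7.58 ± 2.18 CPM in BT483 and 0.437 ± 0.121 CPM in T47D-TamR, and the receptor FZD8 averaged 7.87 ± 0.671 CPM in BT483 and 0.289 ± 0.209 CPM in T47D-TamR. Of the Notch pathway 13 of 25 tested members passed as higher and 6 as lower in BT483; the target gene HEY1 averaged 7.25 ± 4.37 CPM in BT483 and 0.0938 ± 0.0861 CPM in T47D-TamR, its relative HEY2 averaged 3.06 ± 1.83 CPM in BT483 and 0.0749 ± 0.124 CPM in T47D-TamR, the ligand DLL3 averaged 6.39 ± 0.440 CPM in BT483 and 0.0824 ± 0.0595 CPM in T47D-TamR, and MFNG, a glycosyltransferase acting on Notch, averaged 1.19 ± 0.206 CPM in BT483 and 0.0627 ± 0.0547 CPM in T47D-TamR.

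Genes of DNA replication and mitosis were lower in BT483 than in T47D-TamR, and more so under tamoxifen. Of G1/S genes 0 of 40 tested members passed as higher and 35 as lower in BT483, with a median log2 fold change of -1.80. Of G2/M genes 3 of 40 tested members passed as higher and 34 as lower in BT483, with a median of -2.07. By condition the median log2 ratio was -0.95, -1.49, -1.81 and -3.03 for G1/S genes and -1.05, -1.67, -2.08 and -3.34 for G2/M genes. TYMS had 11.4, 9.22, 5.75 and 2.68 CPM in BT483, against 76.3, 68.3, 65.9 and 75.4 CPM in T47D-TamR; TYMS makes thymidylate for DNA synthesis (log2 fold change -3.45, SE 0.38, adjusted p = 4.89e-04). CDC20 had 40.2, 24.5, 12.1 and 4.27 CPM in BT483, against 168, 218, 144 and 207 CPM in T47D-TamR; CDC20 activates the ligase that ends mitosis (log2 fold change -3.52, SE 0.66, adjusted p = 0.00728). In BT483 the control siRNA library was the highest and the tamoxifen library the lowest for both genes, and all BT483 values lay below those of T47D-TamR. CDC45 and CDT1, which load and start the replicative helicase, GINS2, a part of that helicase, and KIF2C and ANLN, of spindle and cytokinesis, also passed as lower, with log2 fold changes of -3.27, -2.74, -2.63, -2.96 and -2.74. NUSAP1, which binds spindle microtubules, was at 0.101 CPM in BT483 against 0.691 CPM in T47D-TamR. The BT483 mean lay below the limit of a count of 0, so this value rests on few counts. MKI67, the proliferation marker Ki-67, named after its values were seen, was close between the control siRNA libraries and apart under tamoxifen: MKI67 had 212, 127, 72.4 and 20.4 CPM in BT483, against 209, 126, 142 and 108 CPM in T47D-TamR. Its line effect missed the threshold (adjusted p = 0.205).

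The counts of called cell cycle genes depended on single libraries. Without 1 of the 4 NLK siRNA libraries, 13 to 15 of 40 G2/M genes and 21 or 22 of 40 G1/S genes passed as lower, with medians from -2.18 to -2.05 for G2/M. Without the tamoxifen library of BT483 or of T47D-TamR, 33 G2/M genes passed, with medians of -1.63 and -1.65. CDC20, CDC45, CDT1 and KIF2C lost their call without any 1 of the 4 NLK siRNA libraries, with adjusted p-values from 0.0584 (CDC45) to 0.110 (CDT1). The 3 G2/M genes that passed as higher were CENPE, CENPF and CKAP2, named after their values were seen, at log2 fold changes from 0.53 to 0.59; CENPE and CENPF overlapped between the lines. Without the control siRNA library of BT483 or of T47D-TamR, 1 G2/M gene passed as higher.

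**Figure D4:**
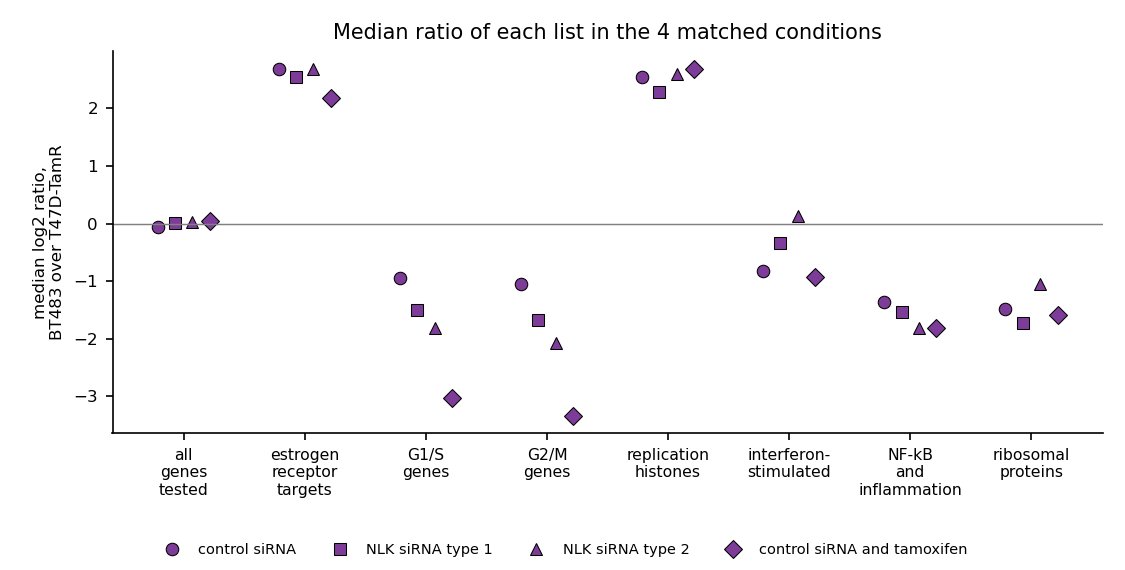
Median log2 ratio of BT483 over T47D-TamR for the tested members of 8 lists, separately for the 4 matched conditions (symbols). The G1/S and G2/M medians are lowest under tamoxifen, at -3.03 and -3.34, the interferon-stimulated median is highest with NLK siRNA type 2, at 0.13, and the medians of all genes lie between -0.07 and 0.04.

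A fit with line-by-tamoxifen and line-by-knockdown terms asked whether the lines responded unequally. It tested 23656 genes and kept 1 residual degree of freedom, which came from the NLK siRNA libraries. Each line had 1 library with tamoxifen, so the error of the tamoxifen term held no repeat of tamoxifen. An unequal response to tamoxifen and a difference between single libraries therefore cannot be told apart. For tamoxifen, 502 genes passed (2.12%), of which 160 (0.676%) had a positive and 342 (1.45%) a negative term, a negative term meaning a larger fall or a smaller rise in BT483. Of 40 G1/S genes 31 were negative and none positive, and of 40 G2/M genes 32 were negative and none positive. Of 42 estrogen receptor targets 12 were negative. DESeq2 called 166 genes in all, among them 25 G1/S genes, 25 G2/M genes and 7 estrogen receptor targets. With at least 10 counts in every library 6 of 28 estrogen receptor targets were negative. MYBL2 had 215, 123, 63.5 and 23.2 CPM in BT483, against 275, 333, 293 and 319.8 CPM in T47D-TamR; MYBL2 is a transcription factor of dividing cells (line-by-tamoxifen term -3.44, adjusted p = 2.47e-18). MYC had 71.3, 65.7, 51.4 and 19.9 CPM in BT483, against 8.23, 8.76, 8.47 and 10.7 CPM in T47D-TamR; MYC, the growth regulator and a known estrogen target, was higher in each BT483 library than in each T47D-TamR library (log2 fold change 2.40, SE 0.43, adjusted p = 0.00476), and least so under tamoxifen (term -2.23, adjusted p = 1.39e-05). CCND1 had 504, 454, 389.8 and 239.8 CPM in BT483, against 83.8, 102, 114 and 95 CPM in T47D-TamR; CCND1 is cyclin D1, the partner of CDK4 and CDK6 (log2 fold change 1.96, SE 0.19, adjusted p = 1.18e-05; line-by-tamoxifen term -1.27, adjusted p = 0.017).

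Across the G1 cyclins, kinases and inhibitors 9 of 20 tested members passed as higher and 10 as lower in BT483. MYCN averaged 8.25 ± 2.68 CPM in BT483 and 0.105 ± 0.135 CPM in T47D-TamR and MYCL averaged 0.924 ± 0.745 CPM in BT483 and 29.2 ± 3.50 CPM in T47D-TamR, relatives of MYC that differed in opposite directions (log2 fold changes 6.32 and -5.10). CDKN2A had 6.55, 5.36, 5.12 and 2.49 CPM in BT483, against 38.1, 52.3, 41.7 and 44.2 CPM in T47D-TamR; CDKN2A encodes p16, an inhibitor of CDK4 and CDK6 (log2 fold change -3.23, adjusted p = 8.69e-07). CDKN1C, the inhibitor p57, averaged 4.48 ± 1.00 CPM in BT483 and 0.516 ± 0.241 CPM in T47D-TamR. Replication histone genes, whose mRNA normally lacks a poly(A) tail, were higher in BT483: 16 of 20 tested members passed as higher and 0 as lower in BT483, with a median of 2.56. HIST1H2AG averaged 5.74 ± 0.586 CPM in BT483 and 0.0212 ± 0.0245 CPM in T47D-TamR, HIST2H3D averaged 6.09 ± 2.22 CPM in BT483 and 0.188 ± 0.188 CPM in T47D-TamR, HIST1H2BJ averaged 1.5 ± 0.614 CPM in BT483 and 0.0514 ± 0.0622 CPM in T47D-TamR and HIST2H4A averaged 3.39 ± 0.352 CPM in BT483 and 0.182 ± 0.0654 CPM in T47D-TamR. The histone medians by condition were 2.55, 2.28, 2.60 and 2.69. The libraries were made from poly(A) RNA, so these values cover only polyadenylated histone transcripts.

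Of p53 targets 10 of 32 tested members passed as higher and 16 as lower in BT483. SPATA18, a mitochondrial quality gene, had 35.2, 39.1, 39.9 and 25.8 CPM in BT483 and 0 counts in T47D-TamR, at least 284-fold higher. TP53I3 had 1.08, 2.55, 1.97 and 2.91 CPM in BT483, against 467, 505, 427 and 445 CPM in T47D-TamR; TP53I3 is an oxidoreductase linked to cell death (log2 fold change -7.77, adjusted p = 1.75e-09). TIGAR, which lowers glycolysis, averaged 10.7 ± 0.324 CPM in BT483 and 0.484 ± 0.329 CPM in T47D-TamR, and TNFRSF10C, a decoy receptor for TRAIL, averaged 0.171 ± 0.0899 CPM in BT483 and 7.02 ± 1.41 CPM in T47D-TamR. In the BCL2 family 11 of 17 tested members passed as higher and 6 as lower in BT483. BCL2 had 13.3, 12.8, 18.2 and 17.7 CPM in BT483, against 0.0836, 0.0402, 0 and 0.272 CPM in T47D-TamR; BCL2 is the founding inhibitor of apoptosis and a luminal marker (log2 fold change 7.20, adjusted p = 6.10e-08). The pro-apoptotic members BIK, HRK and BBC3 were higher in BT483 as well, at means of 28.7 CPM in BT483 against 2.59 CPM in T47D-TamR for BIK, 1.58 CPM in BT483 against 0.0854 CPM in T47D-TamR for HRK and 27.1 CPM in BT483 against 5.92 CPM in T47D-TamR for BBC3.

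Inflammatory and NF-κB genes were lower in BT483. In this list 3 of 27 tested members passed as higher and 22 as lower in BT483, with a median log2 fold change of -1.75. CCL2 had 0.285, 0.392, 0.148 and 0.227 CPM in BT483, against 88.6, 91.3, 66.9 and 78.6 CPM in T47D-TamR; CCL2 is a chemokine for monocytes (log2 fold change -8.31, adjusted p = 1.30e-10). ICAM1, an adhesion molecule for leukocytes, averaged 1.08 ± 0.184 CPM in BT483 and 15.9 ± 4.23 CPM in T47D-TamR, IL32 averaged 1.08 ± 0.125 CPM in BT483 and 13.6 ± 4.86 CPM in T47D-TamR, and TNFAIP3, the A20 inhibitor of NF-κB, averaged 2.04 ± 0.683 CPM in BT483 and 20.1 ± 9.93 CPM in T47D-TamR. None of these 4 genes overlapped between the lines. A further 11 members, IL6 and CXCL8 among them, were at too few counts in both lines to be tested.

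Interferon-stimulated genes gave a mixed picture that differed between siRNAs. In this list 6 of 51 tested members passed as higher and 22 as lower in BT483, and the median was -0.51. By condition the median log2 ratio was -0.82, -0.35, 0.13 and -0.92. IFI27 had 1.76, 3.86, 62.9 and 1.59 CPM in BT483, against 402, 496, 519.8 and 369 CPM in T47D-TamR. RSAD2 had 0.683, 1.24, 7.05 and 0.340 CPM in BT483, against 37.0, 33.0, 78.6 and 24.2 CPM in T47D-TamR; RSAD2, viperin, blocks viral replication (log2 fold change -4.71, SE 0.48, adjusted p = 3.19e-04). GBP1 had 1.82, 1.11, 5.79 and 1.44 CPM in BT483, against 49.5, 52.4, 73.5 and 35.5 CPM in T47D-TamR; GBP1 is a guanylate-binding protein (log2 fold change -4.53, SE 0.27, adjusted p = 4.91e-07). EPSTI1 averaged 0.299 ± 0.145 CPM in BT483 and 7.86 ± 5.17 CPM in T47D-TamR. Within BT483, NLK siRNA type 2 gave the highest value of IFI27, RSAD2 and GBP1, and every T47D-TamR library was still higher. Of the 51 members, 11 passed as lower without the control siRNA library of BT483 or of T47D-TamR, and 12 or 13 without the NLK siRNA type 1 library of BT483 or of T47D-TamR. IFI27 (log2 fold change -6.38, SE 1.26, adjusted p = 0.0131) lost its call without any 1 library other than those with NLK siRNA type 2 (adjusted p from 0.0819 to 0.0991).

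For knockdown, 25 genes (0.106%) passed the line-by-knockdown term, of which 9 (0.038%) were positive and 16 (0.0676%) negative. The interferon-stimulated members among them were IFI44, IFIT1, OAS2 and SAMD9, all positive, with terms from 1.68 (OAS2) to 2.15 (SAMD9). The G2/M members were CCNB1, CDC20, PLK1, KIF2C, BIRC5 and FOXM1, all negative, with terms from -1.42 (PLK1) to -1.21 (CCNB1). DESeq2 called 0 genes for this term, with 199 at an unadjusted p under 0.05 against 958 in edgeR. With at least 10 counts required in every library, edgeR too called 0 genes, with 568 at an unadjusted p under 0.05.

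Antigen presentation was unequal between classes. For MHC class I 5 of 22 tested members passed as higher and 9 as lower in BT483. HLA-B had 228, 286, 936 and 243 CPM in BT483, against 1289, 1456, 1565 and 1304 CPM in T47D-TamR (log2 fold change -2.02, SE 0.36, adjusted p = 0.00529), and its call was lost without the tamoxifen library of BT483 (adjusted p = 0.0733) or of T47D-TamR (adjusted p = 0.0801). TAPBPL, a peptide editor, averaged 37.5 ± 1.87 CPM in BT483 and 2.64 ± 0.851 CPM in T47D-TamR, NLRC5, the activator of class I genes, averaged 25.2 ± 20.3 CPM in BT483 and 7.80 ± 4.90 CPM in T47D-TamR with overlapping groups, and CALR averaged 506 ± 71.9 CPM in BT483 and 2422 ± 250.5 CPM in T47D-TamR. For MHC class II 7 of 10 tested members passed as higher and 1 as lower in BT483, namely HLA-DMA. Members near 0 in T47D-TamR could pass the filter on low counts through BT483 alone, as did HLA-DRA. With at least 10 counts required in every library, 4 class II members were left to test. Over the alternatives 3 to 8 members passed as higher, with a median from 1.29 to 2.755. HLA-DRA had 6.95, 8.77, 22.9 and 5.56 CPM in BT483, against 0.0836, 0, 0.130 and 0.0389 CPM in T47D-TamR (log2 fold change 7.33, adjusted p = 1.62e-08). CD74, the invariant chain, averaged 20.8 ± 11.9 CPM in BT483 and 1.41 ± 0.138 CPM in T47D-TamR, HLA-DQB1 averaged 5.96 ± 1.69 CPM in BT483 and 0.349 ± 0.165 CPM in T47D-TamR, and HLA-DMB averaged 4.87 ± 1.45 CPM in BT483 and 0.208 ± 0.122 CPM in T47D-TamR. HLA genes are highly similar to one another and differ between people, so reads may be lost or misplaced to an extent that differs between lines.

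In metabolism, genes of amino acid stress and cholesterol synthesis were lower in BT483. Of targets of ATF4, the factor that answers amino acid shortage, 4 of 32 tested members passed as higher and 26 as lower in BT483, with a median log2 fold change of -1.21. PHGDH had 18.4, 14.3, 8.38 and 6.35 CPM in BT483, against 214, 304, 236 and 304 CPM in T47D-TamR; PHGDH starts serine synthesis (log2 fold change -4.58, adjusted p = 2.47e-04). NUPR1, a stress-induced chromatin protein, averaged 4.67 ± 2.88 CPM in BT483 and 77.6 ± 7.29 CPM in T47D-TamR, and CHAC1, which degrades glutathione, averaged 0.878 ± 0.380 CPM in BT483 and 11.6 ± 3.38 CPM in T47D-TamR. STC2, which is also an estrogen target, was higher in BT483, at 402 ± 230.2 CPM in BT483 and 28.4 ± 5.74 CPM in T47D-TamR. Of cholesterol synthesis genes 1 of 24 tested members passed as higher and 19 as lower in BT483, with a median of -1.04. STARD4 had 3.99, 2.62, 5.49 and 1.44 CPM in BT483, against 40.7, 29.1, 37.6 and 30.8 CPM in T47D-TamR; STARD4 moves cholesterol between membranes (log2 fold change -3.46, adjusted p = 4.56e-07). ACAT2, which supplies acetoacetyl-CoA to the pathway, averaged 14.9 ± 2.51 CPM in BT483 and 115 ± 8.33 CPM in T47D-TamR, TM7SF2, a sterol reductase, averaged 48.5 ± 2.44 CPM in BT483 and 200.4 ± 27.3 CPM in T47D-TamR, and DHCR7, which makes cholesterol in the last step of the pathway, averaged 66.5 ± 11.3 CPM in BT483 and 237 ± 34.0 CPM in T47D-TamR. The estrogen-free medium was the same for both lines during the experiment, and the earlier serum and the line cannot be told apart.

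Fatty acid genes included the gene with the highest mean CPM of all those detected in T47D-TamR alone. CD36 had 0.171, 0, 0.111 and 0.0378 CPM in BT483, against 1008, 576, 706 and 669 CPM in T47D-TamR. CD36 takes up fatty acids at the surface, and its ratio of T47D-TamR over BT483 was 9086-fold (95% counting interval 4409.5 to 22599). In that list 7 of 27 tested members passed as higher and 15 as lower in BT483; without the NLK siRNA type 1 library of BT483 or of T47D-TamR, 4 passed as higher. FABP6, a bile acid binding protein, averaged 0.0189 ± 0.0378 CPM in BT483 and 4.48 ± 0.362 CPM in T47D-TamR, ACSL4, which activates polyunsaturated fatty acids, averaged 0.537 ± 0.279 CPM in BT483 and 12.7 ± 2.38 CPM in T47D-TamR, and ME1, malic enzyme, averaged 14.1 ± 1.26 CPM in BT483 and 0.878 ± 0.280 CPM in T47D-TamR. For glycolysis and hypoxia 13 of 29 tested members passed as higher and 11 as lower in BT483, so that 82.8% were called in either direction. ENO2, the neuronal enolase, averaged 92.4 ± 2.83 CPM in BT483 and 1.71 ± 0.602 CPM in T47D-TamR, CA12, a carbonic anhydrase that is also an estrogen target, averaged 479.7 ± 123 CPM in BT483 and 23.6 ± 8.37 CPM in T47D-TamR, NDRG1, a stress-induced gene, averaged 790.2 ± 427 CPM in BT483 and 47.6 ± 13.8 CPM in T47D-TamR, and ADM, adrenomedullin, averaged 1.86 ± 0.398 CPM in BT483 and 17.2 ± 1.77 CPM in T47D-TamR.

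Mitochondrially encoded genes took 10.2 ± 0.98% of counts in BT483 and 6.83 ± 0.431% in T47D-TamR (SD, n = 4 each), with no overlap. An exact permutation test, 2-sided, gave p = 0.0286, the smallest that 4 against 4 allows. The 100 most abundant genes took 21.0 ± 1.05% of counts in BT483 and 18.0 ± 0.203% in T47D-TamR, with the same exact p = 0.0286. For both shares the test exchanged libraries freely and did not use their matching by condition. In the fit 8 of 13 tested members passed as higher and 0 as lower in BT483. MT-CO1 had 27246, 26389, 22015 and 31054 CPM in BT483, against 13966, 12765, 13392 and 12658 CPM in T47D-TamR; MT-CO1 is the catalytic subunit of cytochrome oxidase (log2 fold change 1.01, adjusted p = 1.6e-05), but it was 0.15 (adjusted p = 0.46) with limma on the authors' series-wide table. MT-ND1 averaged 5638 ± 466 CPM in BT483 and 2680.5 ± 148 CPM in T47D-TamR, MT-CYB averaged 5663 ± 901 CPM in BT483 and 3485 ± 164 CPM in T47D-TamR and MT-ND6 averaged 1737 ± 161 CPM in BT483 and 942 ± 179.7 CPM in T47D-TamR. Nuclear genes of oxidative phosphorylation went the other way, and 2 of 39 tested members passed as higher and 27 as lower in BT483, with a median of -0.85. SDHD and SDHB, of complex II, averaged 19.2 ± 1.03 CPM in BT483 and 109 ± 14.5 CPM in T47D-TamR for SDHD and 31.5 ± 3.48 CPM in BT483 and 118 ± 9.99 CPM in T47D-TamR for SDHB, and NDUFB5 and NDUFB9, of complex I, had log2 fold changes of -2.22 and -1.87.

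Ribosomal protein genes were mostly lower in BT483: 0 of 74 tested members passed as higher and 67 as lower in BT483, with a median log2 fold change of -1.43. RPL32 had 124, 104, 119.7 and 90.1 CPM in BT483, against 732, 816, 641 and 730.4 CPM in T47D-TamR (log2 fold change -2.74, SE 0.13, adjusted p = 1.09e-08). RPL11 had 165, 168, 179.8 and 152 CPM in BT483, against 1113, 1179, 814 and 926 CPM in T47D-TamR (log2 fold change -2.59, SE 0.13, adjusted p = 1.45e-08). RPS12 averaged 23.9 ± 4.05 CPM in BT483 and 156 ± 43.3 CPM in T47D-TamR, and RPS21 averaged 176 ± 67.8 CPM in BT483 and 1036 ± 546 CPM in T47D-TamR with an adjusted p of 0.0198, which lay between 0.103 and 0.147 without any 1 library other than those with NLK siRNA type 2. Ribosomal protein genes have many near-identical processed copies in the genome, so the counting may have moved or dropped reads. They are also short and abundant. Among 441 genes under 2000 bases with an average log2 CPM of at least 6 that were in neither the ribosomal, the oxidative phosphorylation nor the histone list, the median log2 fold change was -0.55 and 59.2% passed as lower. Among 2059 genes of at least 4000 bases at that level, the median was -0.02 and 39.5% passed as lower. The part of this length difference in the ribosomal and oxidative phosphorylation results was not tested.

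Some genes were detected in 1 line alone. Taking a mean of at least 10 CPM over the 4 libraries of a line and at most 3 counts in each library of the other, 80 genes were detected in BT483 alone, 71 of them protein-coding, and 77 in T47D-TamR alone, 50 of them protein-coding. Highest in BT483 was CYP2B7P, a transcribed pseudogene of a cytochrome P450, with 309, 219, 279 and 4.76 CPM, lowest under tamoxifen, and 0 counts in T47D-TamR, at least 1648-fold higher; it resembles CYP2B6, so its reads are uncertain. ACKR3, a scavenging receptor for CXCL12, followed with 133, 149, 107 and 284 CPM in BT483 against 0, 0, 0.130 and 0 CPM in T47D-TamR. LONRF2, a ubiquitin ligase, averaged 114 ± 20.1 CPM in BT483 and 0.0104 ± 0.0209 CPM in T47D-TamR, and IL20, a cytokine of epithelia, averaged 83.3 ± 43.5 CPM in BT483 and 0.01 ± 0.0201 CPM in T47D-TamR. TCL6 averaged 113 ± 47.7 CPM in BT483 and 0.0216 ± 0.0432 CPM in T47D-TamR, SLC17A9, a transporter of ATP into vesicles, averaged 81.9 ± 29.5 CPM in BT483 and 0.0205 ± 0.0237 CPM in T47D-TamR, SPAG6, of the sperm axoneme, averaged 76.9 ± 5.60 CPM in BT483 and 0.0407 ± 0.0341 CPM in T47D-TamR, and ELOVL2, which lengthens polyunsaturated fatty acids, averaged 75.6 ± 42.3 CPM in BT483 and 0.0504 ± 0.0387 CPM in T47D-TamR. LPIN2, a phosphatidate phosphatase, DPYSL5, of neuronal growth, and HMX1, a homeobox factor, had 0 counts in all T47D-TamR libraries, and were at least 249.6-fold, 222-fold and 158-fold higher in BT483, in that order.

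Detected in T47D-TamR alone were GTSF1, a partner of the piRNA pathway in germ cells, at 0 counts in BT483 and 166, 186, 75.2 and 157 CPM in T47D-TamR (at least 988-fold lower in BT483), and GNAT3, the taste transducin, at 0 counts and 118, 81.3, 96.0 and 79.1 CPM (at least 633-fold lower in BT483). CXCL14, a chemokine, averaged 0.0776 ± 0.0704 CPM in BT483 and 235 ± 38.2 CPM in T47D-TamR. CSMD1, a complement regulator, FSTL5, a secreted follistatin relative, and NAA11, an acetyltransferase of testis, were at 0 counts in BT483 and at least 194-fold, 161-fold and 148-fold lower there, in that order. The 3 T47D-TamR libraries without siRNA, which chose none of these genes, had 142 to 161 CPM of GTSF1, 96.1 to 140.2 CPM of GNAT3 and 698 to 997 CPM of CD36. ACKR3 and IL20 had 0 counts in all 3.

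The group with the largest share on 1 side was that of cancer-testis antigens, genes that are normally active in germ cells and lie largely on the X chromosome: 1 of 33 tested members passed as higher and 32 as lower in BT483. Their median fitted log2 fold change was -8.43, or -5.63 with the 15 members at 0 counts in BT483 set to their bound. Those 15 members passed the filter on low counts through T47D-TamR alone, so their direction was fixed by that filter. With at least 10 counts required in every library, 4 members were left to test. Over the alternatives the median ran from -8.47 to -1.95, and 4 to 35 members passed as lower. SSX1 had 0 counts in BT483 and 97.4, 103, 104 and 86.4 CPM in T47D-TamR, at least 660.5-fold lower in BT483. MAGEB2 had 0 counts in BT483 and 79.4, 88.8, 114 and 85.2 CPM in T47D-TamR, at least 621-fold lower. CTAG2, XAGE2 and SSX3, the last a gene outside the list, had 0 counts in BT483 too, and were at least 551-fold, 173-fold and 243-fold lower there, in that order. MAGEA12 had 0.0569, 0.0654, 0 and 0.0378 CPM in BT483, against 83.0, 108, 84.7 and 85.4 CPM in T47D-TamR, a ratio of T47D-TamR over BT483 of 2602-fold (95% counting interval 890.2 to 12622). BT483 was not without such genes: MAGEA3 averaged 43.6 ± 4.93 CPM in BT483 and 130.4 ± 13.1 CPM in T47D-TamR and MAGEA6 averaged 35.1 ± 3.58 CPM in BT483 and 107 ± 8.10 CPM in T47D-TamR, both named after their values were seen. The 1 member that passed as higher in BT483 was TEX15, of meiosis, at 1.48 ± 0.836 CPM in BT483 and 0.01 ± 0.0201 CPM in T47D-TamR. MAGE, SSX, GAGE, PAGE, XAGE and CTAG genes come in near-identical copies, so a value may hold reads of a neighbour. Of the 46 listed genes, 33 had enough counts to be tested.

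**Figure D5:**
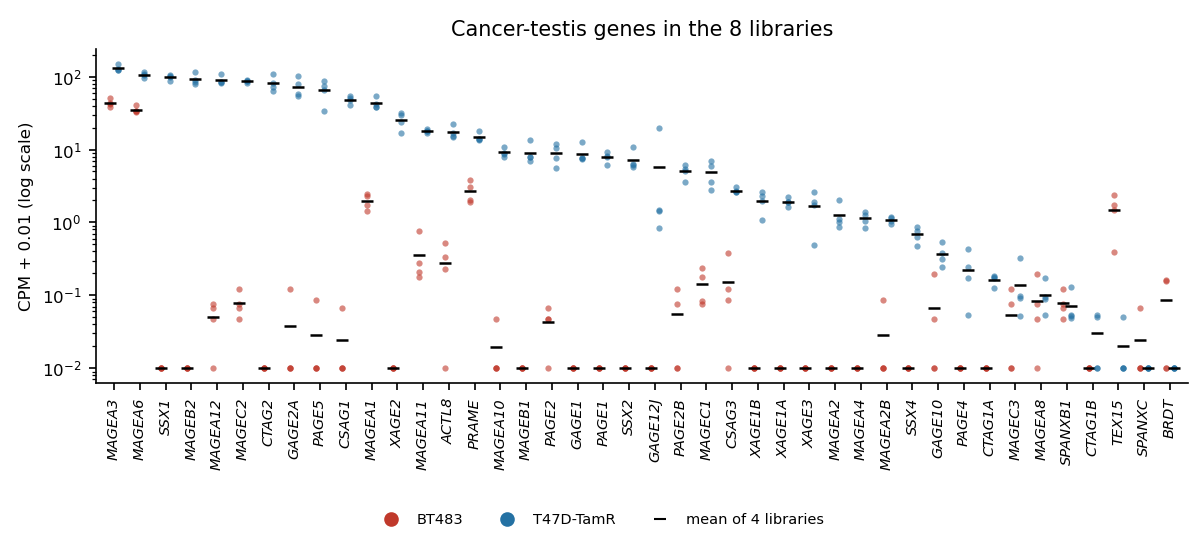
Level of cancer-testis genes in the 8 libraries as CPM + 0.01 on a log scale, with genes ordered by their mean in T47D-TamR and BT483 drawn left of T47D-TamR for each gene; dots are libraries and bars the mean of 4. Most genes lie at or near 0 in BT483; MAGEA3 and MAGEA6 are present in both lines, and TEX15 is higher in BT483.

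Promoter sequences, from 250 bases before to 50 bases after the annotated start, came from RefSeq (GRCh38.p14), in which 11380 of 14549 tested protein-coding genes had one. CpG content was counted as C followed by G, which reads the same on both strands, and as the ratio of observed to expected CpG given the C and G of the window. The median ratio was 0.789 over 51 of the 71 protein-coding genes detected in BT483 alone and 0.534 over 38 of the 50 detected in T47D-TamR alone, against 0.824 over the 11380 genes. A ratio of at least 0.6 was found in 70.6% of the BT483 set, in 42.1% of the T47D-TamR set and in 78.6% of all these promoters. Among all protein-coding genes called and at least 2-fold apart, the order was reversed. There the share was 67.5% of 2506 genes higher in BT483 and 76.3% of 2529 genes lower in BT483, with median ratios of 0.759 and 0.810. The T47D-TamR set shares families of related genes, so its members are not independent, and no test was made. Methylation was not measured. Shown in lower case with each CpG in capitals are NPY1R (chr4:163332547-163332846, minus strand) and HOXD8 (chr2:176129455-176129754, plus strand), higher in BT483, and MAGEB2 (chrX:30215313-30215612, plus strand) and SSX1 (chrX:48255142-48255441, plus strand), lower in BT483, chosen after their values were seen to span CpG-rich and CpG-poor starts.
NPY1R: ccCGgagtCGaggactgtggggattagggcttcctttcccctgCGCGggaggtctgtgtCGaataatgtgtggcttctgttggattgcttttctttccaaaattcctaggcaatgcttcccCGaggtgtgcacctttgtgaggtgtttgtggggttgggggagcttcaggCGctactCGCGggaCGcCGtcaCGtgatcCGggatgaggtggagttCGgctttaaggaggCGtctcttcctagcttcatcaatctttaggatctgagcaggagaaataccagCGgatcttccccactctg
HOXD8: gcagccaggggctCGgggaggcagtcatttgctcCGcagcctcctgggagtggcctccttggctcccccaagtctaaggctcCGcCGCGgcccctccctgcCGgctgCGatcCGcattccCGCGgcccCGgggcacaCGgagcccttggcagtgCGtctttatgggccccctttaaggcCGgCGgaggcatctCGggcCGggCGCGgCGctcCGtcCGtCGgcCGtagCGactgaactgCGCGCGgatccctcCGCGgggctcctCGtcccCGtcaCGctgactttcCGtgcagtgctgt
MAGEB2: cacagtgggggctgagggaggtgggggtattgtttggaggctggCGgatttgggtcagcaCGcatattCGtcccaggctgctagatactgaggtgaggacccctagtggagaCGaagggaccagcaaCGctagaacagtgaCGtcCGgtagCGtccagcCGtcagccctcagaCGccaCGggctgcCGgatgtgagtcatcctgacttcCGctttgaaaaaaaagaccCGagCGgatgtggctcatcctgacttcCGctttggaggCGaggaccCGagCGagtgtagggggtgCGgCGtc
SSX1: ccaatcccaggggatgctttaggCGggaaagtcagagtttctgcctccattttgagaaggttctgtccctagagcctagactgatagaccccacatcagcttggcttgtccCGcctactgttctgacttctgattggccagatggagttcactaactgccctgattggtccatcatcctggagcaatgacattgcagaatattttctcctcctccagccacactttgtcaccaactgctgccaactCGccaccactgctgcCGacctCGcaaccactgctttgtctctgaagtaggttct
HOXD8 held 34 CpG in its 300 bases (ratio 0.887), NPY1R held 16 (0.722), MAGEB2 held 21 (0.788) and SSX1 held 5 (0.259). MAGEB2 and SSX1, both at 0 counts in BT483, thus differed in CpG content.

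HOX genes, which keep a record of position along the body axis, differed in both directions. In the list 12 of 22 tested members passed as higher and 5 as lower in BT483. Called in either direction were 77.3%, near the 70.7% of all genes tested. HOXD8, HOXD3 and HOXD4 of the D cluster were high in BT483: HOXD8 had 36.6, 34.9, 44.3 and 20.4 CPM there and 0 counts in T47D-TamR, at least 277-fold higher, HOXD3 had 5.58, 3.92, 9.38 and 2.72 CPM and 0 counts in T47D-TamR, and HOXD4 averaged 8.51 ± 3.44 CPM in BT483 and 0.0108 ± 0.0216 CPM in T47D-TamR. HOXB13, the prostate and posterior marker that has been studied in tamoxifen-treated breast cancer, averaged 8.79 ± 1.57 CPM in BT483 and 0.0212 ± 0.0245 CPM in T47D-TamR. The 5 genes that passed as lower in BT483 were HOXA3, HOXA5, HOXA6, HOXA11 and HOXB2, named after their values were seen; HOXB2 averaged 3.97 ± 0.970 CPM in BT483 and 22.7 ± 2.35 CPM in T47D-TamR and HOXA5 averaged 0.136 ± 0.128 CPM in BT483 and 1.90 ± 0.337 CPM in T47D-TamR. Imprinted genes, read from 1 parental copy, also diverged: 17 of 27 tested members passed as higher and 8 as lower in BT483. NDN had 0.171, 0.0654, 0.260 and 0.0378 CPM in BT483, against 63.9, 74.9, 84.7 and 74.5 CPM in T47D-TamR; NDN, necdin, is a growth suppressor of neurons (log2 fold change -9.05, adjusted p = 3.65e-10). PEG10 had 601, 738, 1524 and 137 CPM in BT483, against 5.60, 4.94, 6.35 and 5.98 CPM in T47D-TamR; PEG10 is a gene of retrotransposon origin (log2 fold change 6.64, adjusted p = 0.00112). MEST averaged 55.4 ± 11.4 CPM in BT483 and 0.316 ± 0.129 CPM in T47D-TamR, and its antisense partner MESTIT1 had 1.14, 0.850, 1.82 and 1.13 CPM in BT483 and 0 counts in T47D-TamR; the counting is not stated to use strand, so reads of the pair cannot be told apart. Of chromatin and DNA methylation regulators 9 of 26 tested members passed as higher and 9 as lower in BT483. That was 69.2% in either direction, near the 70.7% of all genes tested, and the median of 0.02 changed sign under 4 of 18 alternatives. Single members still differed. HDAC9, a class II deacetylase, averaged 1.54 ± 0.724 CPM in BT483 and 35.6 ± 6.39 CPM in T47D-TamR, BMI1, of Polycomb complex 1, averaged 265 ± 18.3 CPM in BT483 and 46.7 ± 8.55 CPM in T47D-TamR, and KMT2C, an enhancer methyltransferase, averaged 335 ± 17.2 CPM in BT483 and 65.1 ± 13.4 CPM in T47D-TamR. UHRF1, which guides DNMT1 to replicating DNA, averaged 15.4 ± 11.7 CPM in BT483 and 56.0 ± 4.67 CPM in T47D-TamR (adjusted p = 0.0321), and its adjusted p lay between 0.0569 and 0.171 without any 1 library other than the T47D-TamR tamoxifen library.

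Genes that handle drugs and steroids were lower in BT483 more often than higher: 9 of 34 tested members passed as higher and 20 as lower in BT483, with a median log2 fold change of -0.87 that became 0.03 with no filter on low counts. GSTM3 had 6.83, 8.24, 6.97 and 5.25 CPM in BT483, against 584, 530.2, 435 and 544 CPM in T47D-TamR; GSTM3 is a glutathione transferase (log2 fold change -6.27, adjusted p = 1.59e-10). UGT1A1 had 0.854, 1.18, 0.705 and 1.21 CPM in BT483 and 0 counts in T47D-TamR, and UGT1A6 averaged 2.34 ± 0.430 CPM in BT483 and 0.0209 ± 0.0418 CPM in T47D-TamR; both add glucuronic acid to steroids and drugs, and they share exons, so their counts are uncertain. Of ABC transporters 10 of 24 tested members passed as higher and 10 as lower in BT483. ABCC11, an exporter of steroid sulfates, averaged 2.28 ± 1.31 CPM in BT483 and 91.4 ± 36.7 CPM in T47D-TamR, its relative ABCC12 averaged 0.0235 ± 0.0283 CPM in BT483 and 1.73 ± 0.921 CPM in T47D-TamR, and ABCC8, a channel regulator, averaged 12.6 ± 4.62 CPM in BT483 and 0.171 ± 0.0823 CPM in T47D-TamR. ABCC13, a transporter pseudogene, had 5.30, 6.87, 4.82 and 3.44 CPM in BT483 and 0 counts in T47D-TamR.

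Differences were also uneven along the genome. In 287 windows of 10 Mb with at least 20 tested genes, placed by GENCODE 29 on GRCh38, the median log2 fold change of a window ran from -1.66 to 2.14, with the outer 10% at each end below -0.81 and above 0.80. The highest was on chromosome 13 from 100000001 to 110000000, with a median of 2.14 over 23 genes, of which 18 passed as higher and 4 as lower in BT483. The next were chromosome 12 from 1 to 10000000 (median 1.76, 148 genes, 106 higher and 15 lower) and chromosome 15 from 100000001 to its end (median 1.76, 23 genes, 14 higher and 2 lower). The lowest were chromosome 5 from 160000001 to 170000000 (median -1.66, 31 genes, 4 higher and 23 lower), chromosome 11 from 120000001 to 130000000 (median -1.55, 77 genes, 10 higher and 58 lower) and chromosome 6 from 130000001 to 140000000 (median -1.35, 47 genes, 8 higher and 32 lower). In windows of 20 Mb the direction on chromosome 5 turned: from 160000001 to 180000000 the median was 0.46 over 151 genes, of which 78 passed as higher and 43 as lower in BT483. The 20 Mb windows that hold the other named windows had medians of 1.29 on chromosome 13, 1.64 on chromosome 12, 1.76 on chromosome 15, -1.40 on chromosome 11 and -1.08 on chromosome 6. In the 10 Mb chromosome 11 window the median was between -1.64 and -1.38 in each of the 4 matched conditions. Copy number was not measured.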

How the data were processed

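RNA was sequenced from poly(A) libraries of 11 samples, of which the 8 of the siRNA arm were compared. Per library, the authors deposited a table of unscaled counts for 59087 genes and another of log2(TPM + 1) values, with a series-wide log2 table beside them. GRCh38 is the build in the submitters' processing notes; aligner and counting settings were not given in the sources used here. Every column was matched by name and 0 were left unmapped.

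The counts were fitted with edgeR 4.0.16 in R 4.3.3 (TMM scaling, filterByExpr, robust quasi-likelihood F test, 2-sided, condition as block, Benjamini-Hochberg adjustment); 3 residual degrees of freedom remained. DESeq2 1.42.0 and limma 3.58.1 gave alternatives. TMM-scaled CPM and mean TPM describe levels. The scripts were tested on simulated data. GENCODE 29 gave the type, place and length of genes for 56414 symbols.

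Members, gene lists and alternatives were chosen with earlier results of these data known. Genes were named by a rule: protein-coding genes with an adjusted p under 0.05 and an average log2 CPM of at least 3, 12 at each end of the log2 fold change; the 8 of highest CPM among those detected in 1 line; the 10 of highest TPM per line; 12 genes always; up to 4 called members per list and per direction of each interaction; and 3 windows at each end. Genes named outside it were chosen after their values were seen. Some listed genes were not analysed here or are not reported here.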

Additional observations from a re-analysis of the deposited data

Results flagged for a closer look

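The labels give each condition of a line 1 library, so no group was large enough to look for outlying samples. Responses that differed between BT483 and T47D-TamR are the results to look at again. Tamoxifen had 1 library per line in this fit, so the error of its term held no repeat of tamoxifen. For tamoxifen 502 genes passed the line-by-tamoxifen term of the edgeR fit, and for knockdown 25 genes passed the line-by-knockdown term; in both, the difference itself was tested, with 1 residual degree of freedom.

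Among genes with substantial counts in both lines, MYC (line-by-tamoxifen term -2.23, adjusted p = 1.39e-05) and CCND1 (-1.27, adjusted p = 0.017) were lower with tamoxifen in BT483, and neither was lower with it in T47D-TamR. MYBL2 fell with knockdown in BT483 relative to T47D-TamR (line-by-knockdown term -1.5, adjusted p = 0.00146). PFN1P1 had 17.2, 5.95, 4.38 and 6.08 CPM in BT483, against 7.31, 14.7, 9.64 and 11.7 CPM in T47D-TamR (line-by-knockdown term -2.49, adjusted p = 5.91e-04); PFN1P1 is a pseudogene of profilin and its reads are uncertain. FP236383.2 had 11.3, 4.58, 5.45 and 9.67 CPM in BT483, against 4.35, 8.32, 19.2 and 8.47 CPM in T47D-TamR (term -2.78, adjusted p = 1.87e-04). AC104563.1 had 1.14, 4.58, 5.16 and 5.06 CPM in BT483, against 30.5, 32.8, 11.7 and 27.1 CPM in T47D-TamR (term 2.71, adjusted p = 2.59e-04).

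The other terms come from genes with libraries at 0 or few counts, where the fitted size depends on the prior count and is no bound. AL133260.1 had 0.228, 1.57, 5.90 and 0.0756 CPM in BT483, against 52.5, 54.1, 76.7 and 87.1 CPM in T47D-TamR (term 3.53, adjusted p = 1.5e-05). For knockdown also, H2AFZP3 had 0.569, 0.916, 0.631 and 0.378 CPM in BT483, against 19.6, 1.65, 1.64 and 3.26 CPM in T47D-TamR (term 3.93, adjusted p = 0.00146), and IGSF9B had 54.0, 53.2, 50.9 and 47.4 CPM in BT483, against 0.0836, 0.442, 1.21 and 0.544 CPM in T47D-TamR (term -3.26, adjusted p = 0.0202). CDH10 had 0, 0.262, 0.594 and 0.340 CPM in BT483, against 30.8, 17.6, 21.7 and 21.3 CPM in T47D-TamR, with terms of 6.97, adjusted p = 0.0479, for knockdown and of 6.50, adjusted p = 0.039, for tamoxifen; it rests on the BT483 control siRNA library at 0 counts. Of the positive terms for tamoxifen, that of POSTN (9.46, adjusted p = 0.0273) rested on the T47D-TamR tamoxifen library at 0 counts. POSTN had 0.0569, 0.131, 0.0742 and 0.113 CPM in BT483, against 2.01, 5.22, 3.67 and 0 CPM in T47D-TamR. MUC19 had 121, 152, 158 and 563 CPM in BT483, against 0.125, 0.442, 0.475 and 0 CPM in T47D-TamR (term 6.81, adjusted p = 0.0498); the BT483 tamoxifen library was the highest of its line and the T47D-TamR tamoxifen library was at 0 counts. Negative terms rested on the BT483 tamoxifen library at 0 counts, namely WT1 with -8.04, adjusted p = 0.00416, SHISA8 with -6.73, adjusted p = 0.0342, ACTL8 with -6.71, adjusted p = 0.00887 and LINC01511 with -6.34, adjusted p = 0.0164. WT1 had 1.25, 0.523, 0.371 and 0 CPM in BT483, against 1.84, 1.93, 1.6 and 2.06 CPM in T47D-TamR, and ACTL8 had 0.512, 0.327, 0.223 and 0 CPM in BT483, against 15.5, 22.1, 14.7 and 16.8 CPM in T47D-TamR. SHISA8 had 0.399, 0.0654, 0.297 and 0 CPM in BT483, against 5.93, 6.23, 8.56 and 8.31 CPM in T47D-TamR, and LINC01511 had 0.399, 0.0654, 0.0742 and 0 CPM in BT483, against 30.7, 35.2, 31.7 and 32.9 CPM in T47D-TamR.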

How the results depend on the processing

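Of 198 named genes under 18 alternatives to the edgeR line fit, 3380 of 3454 values kept their side of the threshold, 71 lost and 2 gained the call. A change of direction was counted only where either fit called the gene. HSP90AB1 reversed, to 0.11 (adjusted p = 0.57) with limma on the series-wide table; the cause was not tested. The count of genes called was 7730 when tested against a 2-fold change with glmTreat, and ran from 14535 to 15363 with 1 library left out; called at 2-fold or more it ran from 10411 to 10679 with 1 left out and was 5506 with 10 or more counts required in each, where fewer genes were tested. No other alternative moved either count by over 1.5 times, and without the replicate block (line alone) 14351 genes were called; libraries of the same condition deviated from their line means with correlations of 0.0149, 0.0152, 0.157 and 0.0233, so the pairing rests on the labels. For list counts 1345 of 1476 stayed within 1.5 times. The median of all genes was 0.12 with limma on log2(TPM + 1) values and 0.11 with no filter.

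The line-by-tamoxifen count was 166 with DESeq2 and 212 where each library had to hold 10 counts or more, and the line-by-knockdown count 0 with both (199 and 568 at an unadjusted p under 0.05). Leaving out single NLK siRNA libraries there was not run, since no residual degree of freedom remains. Genes detected in 1 line numbered 16 in BT483 and 36 in T47D-TamR when 0 counts were required in the other line, and 143 and 138 at 5 CPM. Medians of 20 Mb windows ran from -1.40 to 1.76. The mitochondrial share differed by 2.97 to 3.76 percentage points with 1 library left out, where an exact test of 3 against 4 cannot go below p = 0.0571. Counts in the 1000 most abundant genes differed by 0.97 percentage points (exact p = 0.0571), and in the 100 most abundant by 3.05.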
